A study of Mus musculus with 2 samples.

Results

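Broad distal hotspots are wide stretches of DNase I sensitive chromatin that lie away from the start of any protein-coding gene. DNase-seq measured where the enzyme DNase I cuts nuclear DNA in MN1, a line of immortalized cells from mouse (strain B6NCrl, per the labels), with 1 group of 2 biological replicates (replicate 1 and replicate 2, 1 library each). No treatment, genotype, tissue of origin or age is given, and every region described here comes from this 1 line. A hotspot is an interval that the authors called as sensitive, and a peak is a 150 bp interval called in the same library. The members were selected on measured widths: a replicate 1 hotspot of 1000 bp or more had to overlap, by 1 bp or more, a replicate 2 hotspot of 1000 bp or more, and to have no GENCODE M21 protein-coding transcription start site (TSS) within 1 kb. On chromosomes 1 to 19 and X, 2935 of the 140173 hotspots of replicate 1 met the rule, which is 2.09%, and they made up 2.61% of the 112385 distal hotspots of that library. Because width and distance to a TSS chose them, neither is a finding, and with 1 group there was no condition to test; the values below are descriptions of both libraries.

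Chromatin that is open to DNase I is mostly depleted of nucleosomes because transcription factors occupy it. Promoters and enhancers are the main classes of such sites, and an enhancer can act on a gene over a long distance, so the nearest gene is not always the gene it acts on. Wide domains of open chromatin often hold several closely spaced factor-bound sites, and CpG islands at promoters form another kind of wide open region.

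The sequences that carry the strongest peaks show how mixed these regions are. For the 10 widest members and the 10 clusters with most members, the peak called in both libraries with the highest mean score rank was read from the GRCm38 reference (the same assembly as mm10), plus strand, leaving out peaks that touch an exon of a coding gene. Of the 17 peaks so chosen, 7 are given, each under its nearest protein-coding gene; 8 of the 17 hold a match to a motif searched for and 9 hold none. Of those printed, the Irf2bp2 peak holds none, and the matches in the others are in capitals. The order is the widest members first and then the clusters.
Tex44, chr1:86442536-86442685: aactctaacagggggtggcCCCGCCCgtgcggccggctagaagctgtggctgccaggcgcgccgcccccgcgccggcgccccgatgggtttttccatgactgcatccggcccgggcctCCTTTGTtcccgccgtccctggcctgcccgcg
Zfp958, chr8:4677376-4677525: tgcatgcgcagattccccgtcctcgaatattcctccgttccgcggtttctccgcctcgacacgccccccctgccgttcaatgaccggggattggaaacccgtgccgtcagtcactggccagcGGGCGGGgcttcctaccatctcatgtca
Irf2bp2, chr8:126666456-126666605: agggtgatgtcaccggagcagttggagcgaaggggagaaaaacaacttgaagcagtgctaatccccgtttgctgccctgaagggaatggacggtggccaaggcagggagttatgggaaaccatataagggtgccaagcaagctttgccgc
Gata2, chr6:88189716-88189865: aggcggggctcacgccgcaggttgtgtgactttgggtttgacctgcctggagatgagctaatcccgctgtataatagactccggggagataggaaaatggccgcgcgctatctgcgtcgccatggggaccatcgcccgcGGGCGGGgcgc
Tuba1c, chr15:98993136-98993285: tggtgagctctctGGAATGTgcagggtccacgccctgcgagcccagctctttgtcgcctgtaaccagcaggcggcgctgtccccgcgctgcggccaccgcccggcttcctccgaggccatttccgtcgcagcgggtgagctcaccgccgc
Aqp6, chr15:99607816-99607965: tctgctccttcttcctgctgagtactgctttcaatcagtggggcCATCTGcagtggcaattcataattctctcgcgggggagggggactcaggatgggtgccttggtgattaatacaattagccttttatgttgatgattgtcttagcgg
Ppara, chr15:85669676-85669825: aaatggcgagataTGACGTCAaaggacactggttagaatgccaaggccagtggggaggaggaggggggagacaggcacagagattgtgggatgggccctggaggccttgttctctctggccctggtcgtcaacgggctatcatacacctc
The peaks near Tex44 and Zfp958 are rich in C and G (74.0% and 62.7%), and the capitals mark the SP/KLF motif GGGCGGG, read on either strand. The Tex44 peak also holds the SOX motif ACAAAGG. The Gata2 peak ends in an SP/KLF match. Among the clusters, the Ppara peak holds the cAMP response element (CRE) TGACGTCA, the Aqp6 peak the E-box CAGATG and the Tuba1c peak the TEAD motif GGAATGT. The score percentile among all peaks of the library was at least 95.2 in replicate 1 (Tex44) and 95.1 in replicate 2 (Ppara) over these peaks.

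Most of the broad distal hotspots were only somewhat wider than the limit. The median width was 1377 bp in replicate 1 (quartiles 1191 and 1707 bp, range 1000 to 5436 bp). The widest overlapping replicate 2 hotspot, called the partner, had a median of 1305 bp (quartiles 1139 and 1598 bp, range 1000 to 7045 bp). The TSS rule was applied to the replicate 1 interval only, so a partner can lie within 1 kb of a coding TSS. The 7045 bp partner belonged to a member 1134 bp from the TSS of Myc, named for this width alone. That partner reached within 1 kb of the TSS, so its width is not that of a distal interval. In replicate 1, 1789 members (61.0%) measured under 1500 bp, 747 (25.5%) between 1500 and 2000 bp, 359 (12.2%) between 2000 and 3000 bp and 40 (1.36%) 3000 bp or more. In replicate 2 the same classes held 2018, 613, 249 and 55 members. A width of 2000 bp was reached by 399 members in replicate 1, by 304 in replicate 2 and by 193 in both; 3000 bp was reached by 18 in both.

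Within the members, which had to overlap by 1 bp or more, the libraries placed most intervals at nearly the same bases but drew their edges differently. Because the rule required this overlap, the values do not describe how well the libraries match elsewhere. The overlap was a median of 88.2% of the joint span, and 80% or more in 2106 members (71.8%); it was under 50% in 109 members (3.71%). The replicate 1 interval was the wider one in 1839 members (62.7%) and the replicate 2 interval in 1078 (36.7%). Across the 2935 regions the log widths had a Pearson correlation of 0.604 and a Spearman correlation of 0.595, given without a p because regions are not replicates and both widths were required to reach 1000 bp. Only 29 members overlapped more than 1 broad hotspot of replicate 2.

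**Figure D1:**
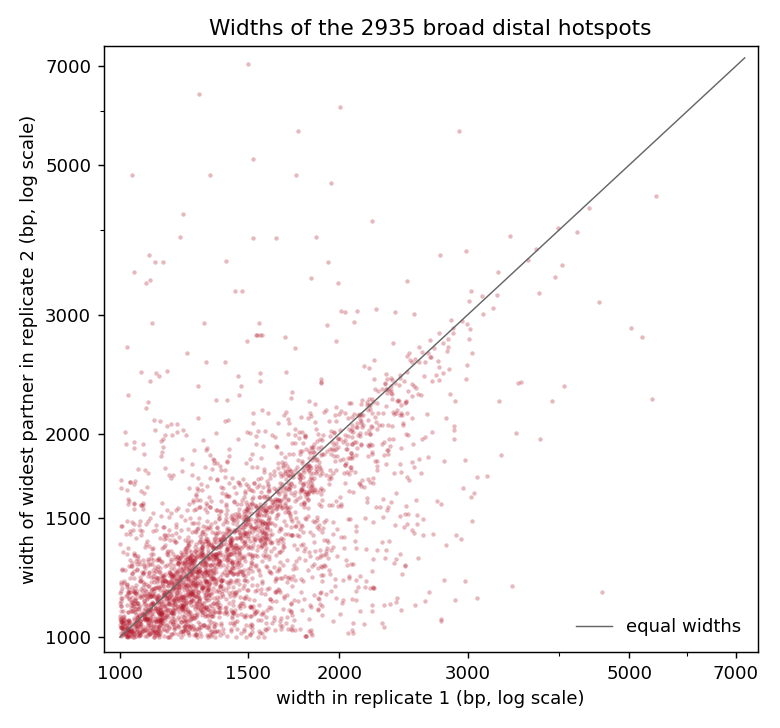
Width of each of the 2935 broad distal hotspots in replicate 1 (x axis, bp, log scale) against its widest replicate 2 partner (y axis, bp, log scale), 1 point per region. The line marks equal widths; most points lie near it and under 2000 bp, and both axes begin at the 1000 bp limit.

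The 1000 bp limit cuts a continuous distribution. With each region taken at the smaller of its widths, 395 members lay less than 50 bp above the limit, and 444 distal hotspots of both libraries lay up to 50 bp below it. At the limit itself 10 members had a smaller width of 1000 bp, and 8 hotspots just outside had one of 999 bp. Of the first, the 3 narrowest in replicate 1 were near Arid3a (1000 bp in replicate 1, 1376 bp in replicate 2), Auh (1000 and 1076 bp) and Eif4g2 (1000 and 1122 bp). Of those just outside, the 3 widest in replicate 1 were near Tmtc2 (1914 bp in replicate 1, 999 bp in replicate 2), Gm10260 (1396 and 999 bp) and Lrrn3 (1184 and 999 bp). Of the distal replicate 1 hotspots that reached 1000 bp, 2123 had no replicate 2 hotspot of that width; 1916 of these overlapped a narrower one and 207 overlapped none. Hotspots were also split by small gaps: 1192 members (40.6%) had another replicate 1 hotspot within 150 bp on either side, against 22.6% of narrower distal hotspots and 31.7% of all replicate 1 hotspots.

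Most broad distal hotspots held several peaks. The mean was 2.58 peaks in replicate 1 (range 1 to 9) and 2.67 in replicate 2 (range 1 to 13). Peaks were counted where their centre lay inside, for replicate 2 inside the partner, to which the TSS rule was not applied. In replicate 1, 372 members (12.7%) held 1 peak, 1246 (42.5%) held 2, 821 (28.0%) held 3, 340 (11.6%) held 4, 102 (3.48%) held 5 and 54 (1.84%) held 6 or more. A share of 44.9% thus held 3 or more peaks in replicate 1, and 48.8% did in replicate 2. Of the 7563 replicate 1 peaks inside members, 6667 (88.2%) overlapped a replicate 2 peak, and 1000 members (34.1%) held 3 or more such shared peaks. Every member had to overlap a broad replicate 2 hotspot, so this share does not describe replicate 1 peaks in general. In 10 members no replicate 1 peak had a replicate 2 counterpart.

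The comparison sets show how much of this follows width. The 66610 narrower distal hotspots of replicate 1, which were under 1000 bp, overlapped a replicate 2 hotspot and lay over 1 kb from any coding TSS, held a mean of 1.05 peaks, and 92.4% held 1. The 7497 broad promoter hotspots, which met the same width rule within 1 kb of a coding TSS, held a mean of 2.86. Per kb, the broad distal hotspots held a mean of 1.69 peaks and the broad promoter hotspots 1.60. Wider members held more peaks at a similar density: members of 1000 to 1200 bp held a mean of 1.92 peaks (1.75 per kb), those of 1500 to 2000 bp held 2.87 (1.68 per kb) and the 40 of 3000 bp or more held 6.55 (1.79 per kb). Because width chose the members, the number of peaks inside them was partly fixed by the rule.

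**Figure D2:**
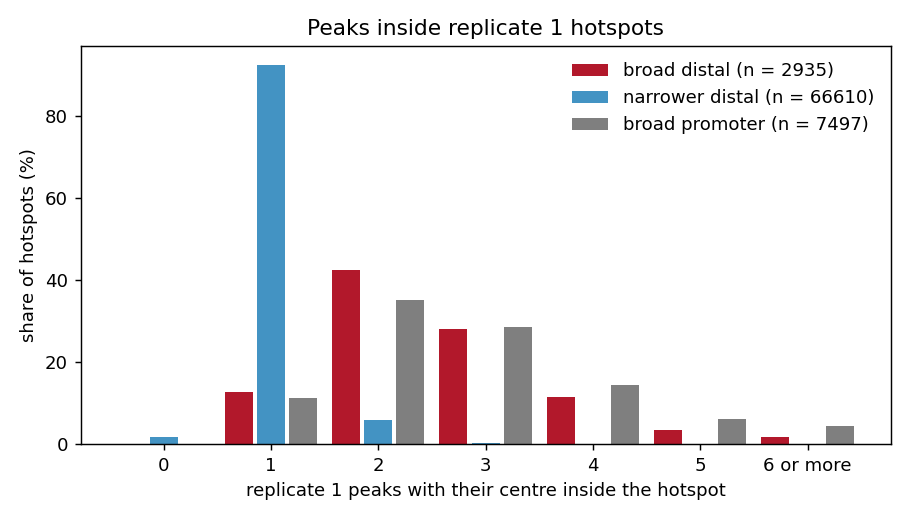
Share of hotspots (y axis, %) by the number of replicate 1 peaks inside (x axis), for 2935 broad distal, 66610 narrower distal and 7497 broad promoter hotspots. Broad distal hotspots most often held 2 peaks (42.5%), narrower ones 1 (92.4%).

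Neighbouring peak centres were a median of 460 bp apart in replicate 1 (quartiles 360 and 600 bp, highest 1480 bp, 4628 gaps) and 420 bp apart in replicate 2 (quartiles 340 and 560 bp, highest 1500 bp, 4903 gaps). Replicate 1 peaks covered a median of 25.5% of a member. The highest peak of a member was strong within its library: its median score percentile among all peaks was 91.5 in replicate 1 and 89.5 in replicate 2. In narrower distal hotspots the highest peak had a median percentile of 55.9 in replicate 1, and in broad promoter hotspots 96.8. The highest was taken over a mean of 2.58 peaks per member and 1.05 per narrower distal hotspot. Peaks and hotspot widths also come from the same library. The part that width and peak number have in these percentiles was not tested. The weakest peak of members with 2 or more had a median percentile of 65.8 in replicate 1 and 62.9 in replicate 2 (lower quartiles 52.6 and 48.5).

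The 10 widest members, taken by the smaller of both widths, were between 3300 and 4500 bp wide by that measure, and several sat on starts of noncoding genes. The widest lay at chr4:148708255-148713690, 5436 bp in replicate 1 and 4500 bp in replicate 2, 64938 bp from the TSS of Gm572 and 13 bp from the start of the long noncoding RNA (lncRNA) gene Gm13203. It held 9 peaks in replicate 1 and 7 in replicate 2. All 9 replicate 1 peaks overlapped a replicate 2 peak.
The next, chr1:86439385-86443792, measured 4408 and 4313 bp in replicates 1 and 2 and lay 13056 bp from Tex44, a gene named for testis expression. It held 8 and 9 peaks, the highest at percentile 95.2 in replicate 1 and 97.1 in replicate 2.

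The member at chr17:47138881-47142868 (3988 bp in replicate 1, 4027 bp in replicate 2) had Ubr2, which encodes a ubiquitin ligase, as its nearest coding TSS at 128325 bp. It contained an annotated start of Trerf1, a zinc-finger regulator gene that GENCODE M21 does not class as protein-coding, so it counts as distal only by that annotation. Its top peak was at percentile 99.1 in replicate 1 and 99.8 in replicate 2. The member at chr8:4675767-4679487 (3721 and 3758 bp, nearest coding gene Zfp958, a zinc-finger gene) likewise contained the start of the lncRNA gene Gm6410. That at chr6:31215552-31219506 (3955 and 3413 bp, nearest Mkln1, the muskelin gene) contained a start of the lncRNA gene Lncpint. That at chr6:88189103-88192402 (3300 and 3473 bp) lay 1489 bp from Gata2, a transcription factor gene of blood and nervous system development, and contained the start of the lncRNA gene Gm38708. Their CpG observed/expected ratios were 0.557 (Trerf1), 0.536 (Gm6410), 0.724 (Lncpint) and 0.532 (Gm38708). It was 0.25 in the widest member, at the start of Gm13203, and 0.535 in the Tex44 member, 29867 bp from any noncoding start.

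The others lay 12585 bp or more from any noncoding start. The member at chr8:126665271-126668898 (3628 bp in replicate 1, 3611 bp in replicate 2), 71285 bp from Irf2bp2, which encodes a transcriptional co-repressor, had an overlap of 98.2% of the joint span and 6 peaks in each library. Its peaks in replicate 1 lay at percentiles 83.1 to 99.7 and those in replicate 2 at 87.9 to 98.9. The member at chr10:80158064-80162304 (4241 and 3973 bp) lay 3681 bp from Cirbp, the gene of a cold-inducible RNA-binding protein, and held 5 and 6 peaks with the highest at percentiles 99.8 and 99.6. The last were on chromosome 18, at chr18:55546459-55550499 (4041 and 3553 bp), 553904 bp from the zinc-finger gene Zfp608, and at chr18:35936811-35940239 (3429 and 3921 bp), 24591 bp from Psd2, an exchange-factor gene for ARF proteins.

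**Figure D3:**
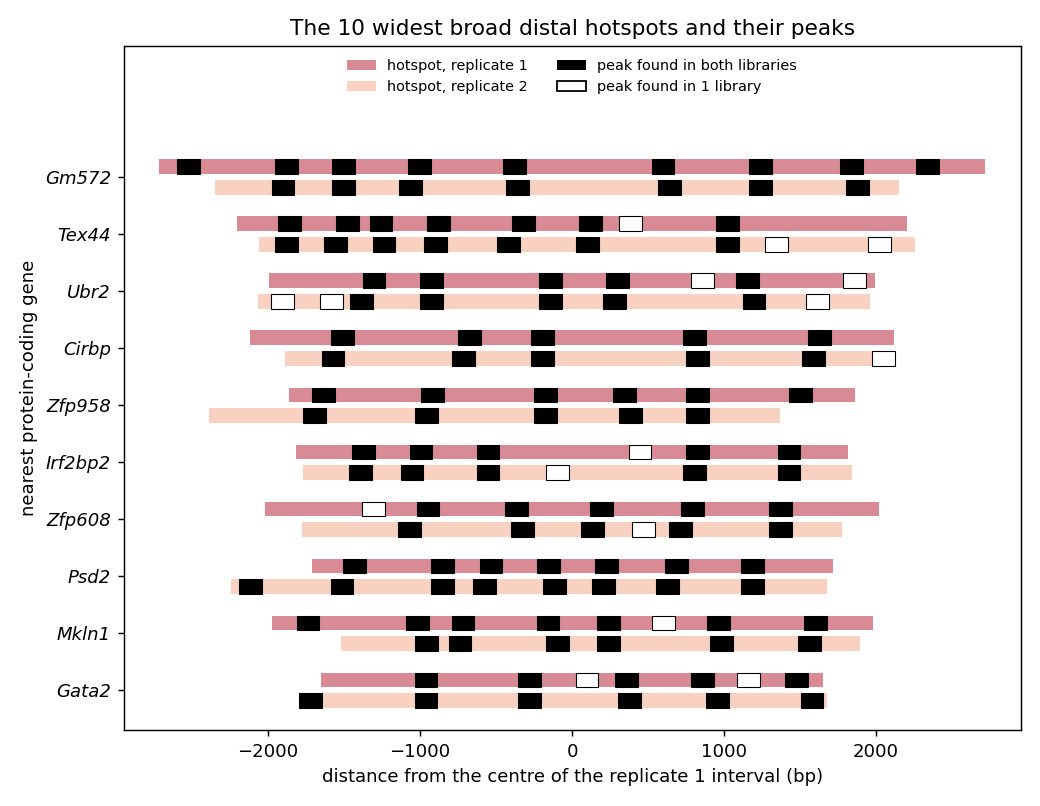
The 10 widest broad distal hotspots, drawn to scale by distance from the centre of the replicate 1 interval (x axis, bp) and labelled by nearest protein-coding gene (y axis). Bars are hotspots, replicate 1 above replicate 2, and boxes are peaks, filled where the other library had an overlapping peak; most boxes are filled and line up between libraries.

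Members were scattered, with a minority in clusters. The median distance to the next member on a chromosome was 177225 bp (quartiles 46635 and 634048 bp). Joining members at the stitching distance usual in super-enhancer calling, which left neighbours of a cluster a median of 4253 bp and at most 12441 bp apart, gave 270 clusters of 2 or more, which held 591 members (20.1%); 232 clusters had 2 members, 27 had 3, 9 had 4 and 2 had 5. The clusters spanned a median of 8275 bp (range 2100 to 32324 bp). In 239 clusters (88.5%) all members had the same nearest coding gene.

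A cluster of 5 members lay near the alpha-tubulin genes Tuba1a and Tuba1c. The tubulin cluster, chr15:98968826-98994259, held 17 and 18 peaks, 16 of the replicate 1 peaks shared, in members of 1042 to 2516 bp.

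Among the clusters of 4 members, those with the longest spans included ones near the aquaporin genes Aqp2, Aqp5 and Aqp6 (32.3 kb), Wnt7b and Ppara (28.2 kb), Dnajb12 and Ddit4 (25.4 kb), Psd2 (25.1 kb), Tomm20 (24.3 kb) and Nanos3 (18.5 kb). Wnt7b encodes a Wnt ligand, Ppara a fatty-acid sensing nuclear receptor, Ddit4 a stress-induced inhibitor of mTOR signalling, Tomm20 a mitochondrial import receptor and Nanos3 a germ-cell RNA-binding protein. Members filled 58.4% of the Nanos3 span (chr8:84186274-84204745) and 42.4% of the Psd2 span, against 17.7% of the aquaporin span. One of the Nanos3 members was 5377 bp wide in replicate 1 and 2248 bp in replicate 2, with 8 and 3 peaks. The Wnt7b and Ppara cluster, chr15:85652378-85680563, lay between these genes, 69905 and 74860 bp from the Wnt7b TSS on one side and 54420 and 64175 bp from the Ppara TSS on the other. Its widest member measured 4547 bp in replicate 1 and 3131 bp in replicate 2.

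By position relative to protein-coding genes, broad distal hotspots were more often intergenic than narrower ones. Noncoding genes were not used here, so the members in Trerf1 and Lncpint, for example, counted as intergenic. By their centre, 1777 members (60.5%) were intergenic, 1043 (35.5%) intronic and 115 (3.92%) in an exon, whereas narrower distal hotspots were 47.4% intergenic, 47.5% intronic and 5.09% exonic. A coding gene annotated over 4435 kb of chromosome 8, Gm20388, alone made 29 members intronic; without it the intronic share was 34.5%, against 47.2% for narrower ones. Intergenic members had a median width of 1425 bp, intronic ones 1323 bp and exonic ones 1266 bp in replicate 1; in replicate 2 the medians were 1322, 1283 and 1308 bp. The median distance to the nearest coding TSS was 22826 bp (quartiles 7803 and 59616 bp), against 17012 bp (5867 and 48349 bp) for narrower distal hotspots. In 491 members (16.7%) it was 1 to 5 kb, in 1192 (40.6%) 10 to 50 kb and in 18 (0.613%) 500 kb or more. For narrower distal hotspots these shares were 21.9%, 39.0% and 1.18%, so in the farthest class members had the smaller share. These distances run from the nearer edge of the interval, whereas position was taken at its centre. A wide interval has to lie farther from a TSS by its centre to count as distal. The part that width, or the use of coding genes alone, has in the difference in position or in distance was not tested.

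Noncoding genes started in or near many of them. An annotated lncRNA start lay within 1 kb of 344 members (11.7%), against 2.59% of narrower distal hotspots. A wider interval reaches more starts, so the count was repeated from the centre alone: 9.88% of members and 2.32% of narrower ones had a start within 1 kb of the centre. Any gene that is not protein-coding started within 1 kb of 433 members (14.8%), against 4.61% of narrower distal hotspots, both counted from the interval edges. The 344 members with a lncRNA start had a median width of 1548 bp and a median CpG observed/expected ratio of 0.396, against 1366 bp and 0.270 for the 2502 members with no start of any kind within 1 kb.
Among them were members over starts of Neat1, which scaffolds nuclear paraspeckles (chr19:5844710-5847627, 2918 bp in replicate 1 and 5622 bp in replicate 2, with 4 and 13 peaks), and of Dleu2, the host gene of tumour-suppressive microRNAs (chr14:61680665-61683526, 2862 and 2869 bp, 5 peaks in each). Both were picked out after their values were seen.

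A microRNA gene started within 1 kb of 27 members (0.920%), against 0.305% of narrower distal hotspots. From the centre alone it was 20 members (0.681%), against 0.254% of narrower ones. MicroRNAs are short RNAs that repress messenger RNAs. Members chosen for mention after their values were seen lay at Mir375, a microRNA of neuroendocrine cells (chr1:74900322-74902095, 1774 and 1739 bp in replicates 1 and 2, 4 peaks in each), Mir7-2 (chr7:78886488-78888395, 1908 and 1392 bp) and Mir7b (chr17:56241082-56242531, 1450 and 1528 bp). Others lay at Mir212, an activity-induced neuronal microRNA (chr11:75172086-75174005, 1920 and 2167 bp), at Mir210, which hypoxia induces (chr7:141221466-141222753, 1288 and 1327 bp), and at Mirlet7i (chr10:122984690-122987221, 2532 and 1787 bp). All 6 held the same number of peaks in both libraries or differed by 1. Members near Mir203, Mir193a and Mir17 were among those not described, so the 6 do not stand for all 27.

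Chromosomes carried unequal numbers. Across all 20 chromosomes there were 11.1 members per 10 Mb; chromosome 11 had the most members (244), followed by chromosomes 8 (224) and 2 (220). Chromosome 11 also had the most per 10 Mb, followed by chromosome 15 (18.3 per 10 Mb), chromosome 8 (17.3) and chromosome 17 (17.3), and X had the fewest (1.46 per 10 Mb, 25 members). Members formed 4.22% of the members and narrower distal hotspots together. That share was 5.94% on chromosome 15 and 5.52% on chromosome 8, 4.73% on chromosome 11, and 2.05% on X. Narrower hotspots were few on X as well (69.9 per 10 Mb), but the share of members there was still below the 4.22% of all chromosomes.

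The members spread over 2022 nearest coding genes, 9.31% of the 21728 protein-coding genes. Of these, 1465 were nearest to 1 member, 360 to 2, 120 to 3, 39 to 4 and 38 to 5 or more, and these last 38 took 234 members. The promoter of the nearest gene was itself a hotspot in both libraries for 84.4% of members, close to 82.5% for narrower distal hotspots; among all protein-coding genes it was 59.9%.

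The genes with most members were nearest to many narrower distal hotspots as well. Zfp608 had 13 members, 3540 to 630810 bp from its TSS, and 73 narrower distal hotspots. Zmiz1, a co-activator gene related to the PIAS family, had 11 (18737 to 348931 bp) and 98 narrower ones. Irf2bp2 had 9 (1212 to 140746 bp), none of them intronic, with 36 replicate 1 peaks inside, and 32 narrower ones. Gse1, whose product is found with the CoREST co-repressor complex, also had 9, all within the gene body, and 96 narrower ones.
Tle3, a Groucho co-repressor gene, had 7 members with 21 peaks, and the forkhead gene Foxl1 had 7, all in the Gm20388 annotation, with a promoter hotspot in replicate 2 alone. The uncharacterized 1600014C23Rik had 7 as well.

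Genes with 6 members included Wnt7b, Pmfbp1, a sperm-structure gene, Mdm1, a centriole gene, Zfpm1, which encodes the GATA cofactor FOG1, Trps1, an atypical GATA repressor gene, Maml3, a Notch co-activator gene, and Ahdc1, an AT-hook gene. Their members were laid out differently. The Ahdc1 members were close, at a median of 8161 bp from the TSS, with 4 in its introns. The Trps1 members were far, 106530 to 398239 bp away. Maml3 had 5 of its 6 members in introns of a gene that spans chr3:51685907-52105076. Pmfbp1 had no promoter hotspot in either library, although 6 broad distal hotspots had it as their nearest coding gene.

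Lists of genes by function and cell type, written from textbook knowledge, were used to describe the nearest genes. Of the 555 genes in 31 lists, 135 (24.3%) were nearest to at least 1 member, against 9.31% of all coding genes; by a window of 50 kb from a member to any TSS it was 157 (28.3%), against 16.3% of all. These list genes also had more distal hotspots of any width: 437 of 555 (78.7%) were nearest to a narrower one, against 60.4% of all coding genes. When genes were grouped by their number of shared distal hotspots, both shares were larger where that number was larger, and list genes had the larger share in each class. Among genes with 1 or 2, 4.17% of list genes and 3.17% of all coding genes had a member; with 6 to 10 it was 28.6% and 25.5%, with 11 to 20 it was 39 of 65 list genes, against 48.1% of all coding genes, and with 21 or more it was 84.2% of list genes and 74.7% of all. Counted per hotspot, members were 5.44% of the distal hotspots nearest to list genes and 4.22% of those nearest to all coding genes.

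**Figure D4:**
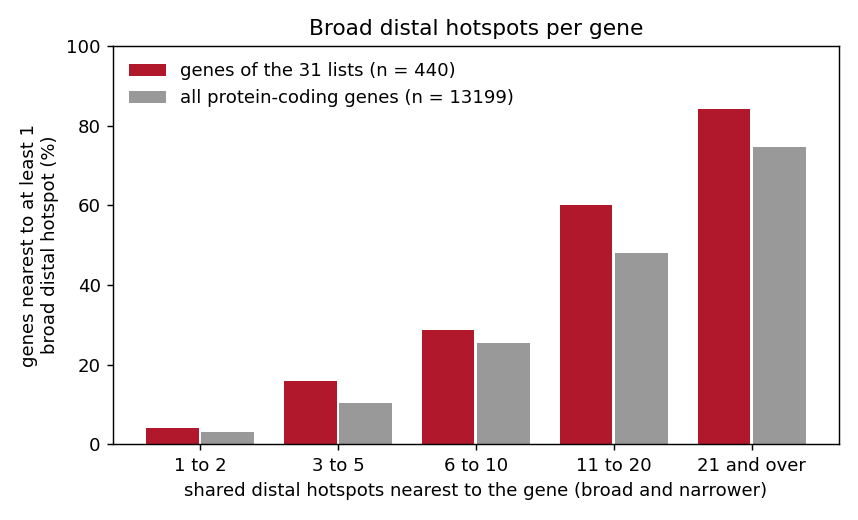
Share of genes that were nearest to at least 1 broad distal hotspot (y axis, %) by the number of shared distal hotspots nearest to the gene (x axis), for genes of the 31 lists and all protein-coding genes. Both shares climb, to 84.2% of list genes and 74.7% of all coding genes in the class of 21 and over.

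The share of a list's genes that were nearest to a member ranged between 4.76% (cell cycle) and 52.4% (proneural and E-protein bHLH), and no difference between lists was tested. Axon guidance had 15 of 30 genes nearest to a member (29 members), led by Slit3, a secreted repellent (5 members, 12924 to 125836 bp), Plxna1, a semaphorin receptor (3), Ntn1, a netrin guidance cue (3), and its receptor gene Unc5b (3). Their 29 members were 5.72% of the distal hotspots nearest to the list. The proneural and E-protein bHLH list had 11 of 21: Tcf4, an E-protein (4 members), Hand2, a sympathetic neuron factor (3), Hes1 (2) and Hey1 (1), which are Notch-induced repressors. The ion channel list had 10 of 20, including the calcium channel genes Cacna1a and Cacna1d and the potassium channel genes Kcnn3 and Kcnh2 with 2 members each.
The Hand2 member nearest to its TSS, 6062 bp away at chr8:57327045-57329564, measured 2520 bp in replicate 1 and 1818 bp in replicate 2 with 5 and 4 peaks.

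The sympathoadrenal list had 9 of 20 genes, with Hand2 and Mycn at 3 members and Alk and Isl1 at 2. The motor neuron list had 3 of 20, namely Isl1 (2 members, 133429 and 215060 bp from its TSS), Foxp1 (1) and Chat (1), the gene of the acetylcholine-synthesizing enzyme; 19 of these 20 genes had a narrower distal hotspot. The Chat member, chr14:32439283-32440704, measured 1422 bp in replicate 1 and 1096 bp in replicate 2 and lay 20207 bp from its TSS. The pan-neuronal list had 7 of 24, with Stmn2, a neuronal microtubule regulator, at 3 members and Syt1, Mapt and Celf4 at 1. Neural progenitor genes had 3 of 15 (Hes1, Prom1 and Msi1), and the glia and neural crest list 5 of 18, among them Pax3 (2), Pdgfra, Erbb3 and Sox10.

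Among signalling lists, the Wnt pathway had 11 of 26 genes and 20 members: Wnt7b (6), Wnt4 (3), and the nuclear effectors Lef1 and Tcf7l2 (2 each). Neurotrophic and growth factor receptors had 9 of 22, with Fgfr1, Gfra2 and Gfra1 at 3 and Ntrk3 at 2. The Notch list had 5 of 20 and 13 members, of which Maml3 took 6 and the ligand gene Dll1 3. The TGF-beta and BMP list had 7 of 25, with Ski at 2 and Smad6, Smad7 and Bmpr1a at 1; the Ski member at chr4:155233451-155236491 was 3041 bp wide in replicate 1 and 2632 bp in replicate 2. Adhesion and cytoskeleton genes had 7 of 25, led by Dst (3), Ank3 and Ncam1 (2 each) and Itga6 (1).

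Transcription factor families varied. The SOX family had 5 of 14 (Sox4 with 4 members, Sox8 with 2, Sox9 and Sox11 with 1), TALE cofactors 4 of 11 (Pbx3 and Meis1 with 2, and Meis2 with 1 among them), NFI and RFX factors 3 of 11 (Nfib 3, Nfic 2, Nfia 1) and the AP-1 family 4 of 14. The AP-1 members were near Fos (3), Fosb (2), Jun (1) and Atf3 (1); the nearest to Fos, chr12:85485342-85487139, was 1798 bp wide in replicate 1 and 1004 bp in replicate 2, 10431 bp from its TSS. Hox genes had 2 of 39, Hoxc4 (3 members) and Hoxc9 (1). The whole list had 37 distal hotspots, of which 4 (10.8%) were members, against 4.22% for all coding genes.

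In the lists for other tissues and basic functions the share was 35.3% or less. Cell cycle genes had 1 of 21 (Ccnd1) and housekeeping genes 3 of 20 (Ywhaz with 3 and Eef1a1 with 1 among them). Erythroid and megakaryocyte genes had 1 of 15, which was Zfpm1 with its 6 members, lymphoid genes 1 of 18 (Tcf7), myeloid 1 of 15 (Lyz2), pluripotency 1 of 16 (Klf4), hepatocyte 2 of 15 (Foxa1 among them) and epithelial 2 of 15 (Epcam and Cldn4). Endothelial genes had 2 of 14 (Vwf and Pecam1), skeletal muscle 2 of 16 (Des and Chrna1), germ line 2 of 12 (Spo11 and Dazl), cardiac 3 of 12 (Ryr2, Tbx20 and Gata4) and mesenchymal 6 of 17 (Zeb1, Dcn, Zeb2 and Snai1 among them). Many of these lists had few distal hotspots of any width, and counted per distal hotspot the order of the lists was another. Members were 4 of 34 (11.8%) distal hotspots in the epithelial list, 2 of 20 in germ line, 9.09% in housekeeping, 7.89% in erythroid, 7.41% in hepatocyte and 6.15% in endothelial genes, and 0.990% in pluripotency, 1.82% in cell cycle and 2.04% in lymphoid genes. They were 8.06% in the bHLH, 5.30% in the ion channel, 3.25% in the motor neuron and 2.96% in the pan-neuronal list. Every one of the 31 lists had at least 1 gene nearest to a member, and no expression was measured.

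In GC content and CpG observed/expected ratio the broad distal hotspots lay between the comparison sets. Their median GC content was 50.9%, against 49.0% in narrower distal and 57.6% in broad promoter hotspots of replicate 1. The median CpG observed/expected ratio was 0.282, against 0.209 and 0.703, and 208 members (7.09%) reached 0.6, a level of CpG islands, against 3.18% and 74.2%. Peaks inside members were richer in GC than the sequence between them: the medians were 53.3% inside and 50.2% outside, and GC was higher inside in 2330 members (79.4%). Annotated repeats made up a median of 10.5% of a member, above the 8.07% of narrower distal and the 8.11% of broad promoter hotspots. Only 1 member was 50% or more repeat, against 2882 narrower distal hotspots (4.33%).

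Motifs in the peaks were searched as fixed letters on both strands of each 150 bp peak, in 7563 peaks inside members, 69638 in narrower distal hotspots, 21452 in broad promoter hotspots and all 170217 of replicate 1. A match is a description of the letters and not of a bound factor. CTCF, the insulator protein whose motif is long and specific, had a match in 1.81% of member peaks in replicate 1 and 1.78% in replicate 2, against 6.13% in narrower distal hotspots, 0.573% in broad promoter hotspots and 3.45% of all peaks. The AP-1 motif TGACTCA had a match in 9.22% of member peaks (8.94% in replicate 2), against 12.4%, 2.95% and 8.59%. Members hold more peaks each than narrower hotspots, so the shares were also taken over the highest peak of each: CTCF was then in 2.76% of members and 6.45% of narrower distal hotspots, and AP-1 in 12.2% and 12.8%. The related MAF bZIP motif had 0.450%, against 0.701%, 0.112% and 0.510%.

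Promoter-type motifs stood the other way round. The SP/KLF motif GGGCGGG was in 7.17% of member peaks (8.27% in replicate 2), against 2.49% in narrower distal, 25.1% in broad promoter and 6.43% of all peaks. ETS (CCGGAAG) was in 2.66%, against 1.16%, 7.07% and 2.27%; NRF1 in 0.476%, against 0.121%, 3.97% and 0.785%; and CRE (TGACGTCA) in 0.740%, against 0.474%, 1.52% and 0.603%. The SP/KLF, ETS and NRF1 motifs are rich in C and G, and member peaks had a median GC of 53.3%, against 50.7% in narrower distal ones. Within peaks of 45 to 55% GC, SP/KLF was in 2.41% of member peaks and 1.47% of narrower ones, ETS in 1.78% and 1.03%, and CTCF in 1.78% and 6.04%. Without the members that have any annotated TSS within 1 kb, SP/KLF was in 6.29% and ETS in 2.30%.

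**Figure D5:**
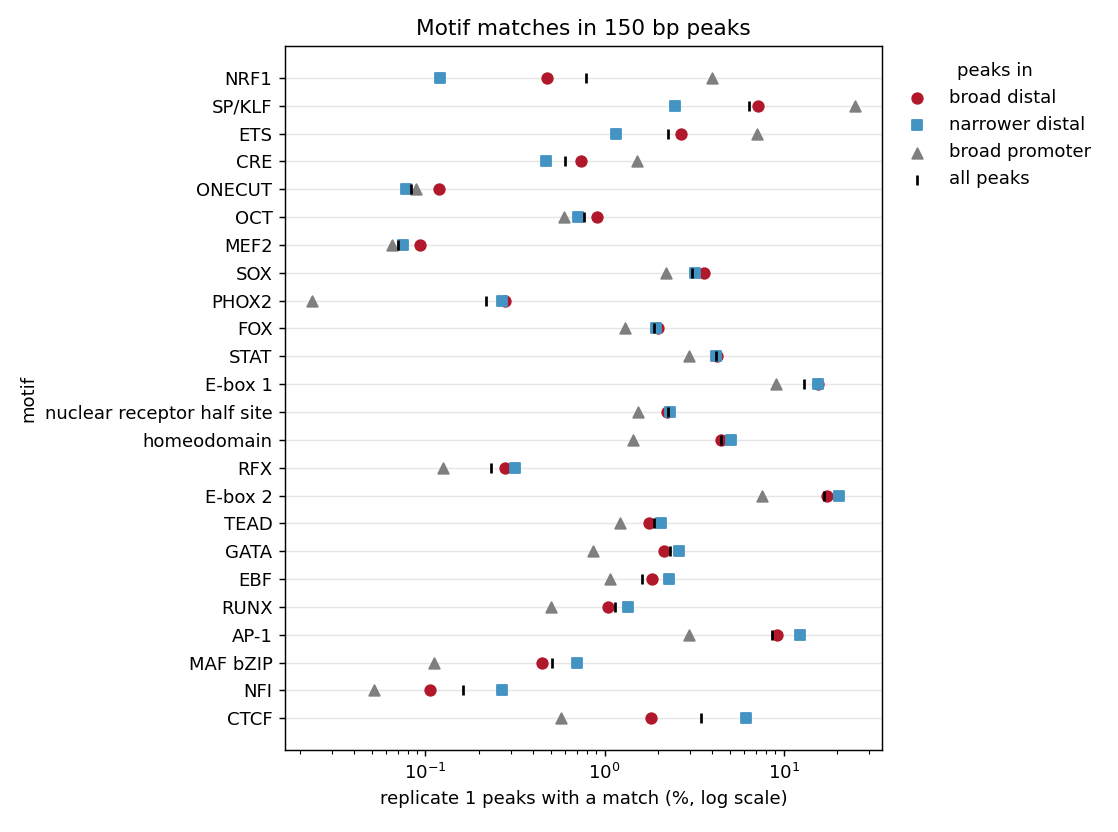
Share of replicate 1 peaks with a match (x axis, %, log scale) for the 24 motifs searched (y axis), ordered by the ratio of members to narrower distal hotspots; E-box 1 is CAGCTG and E-box 2 is CAGATG. Member peaks lie between narrower distal and broad promoter peaks for NRF1, SP/KLF, ETS, AP-1 and CTCF, and near the narrower distal ones for most others.

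For the other motifs the share of member peaks is set beside that of all peaks. The E-boxes of bHLH factors were in 15.5% (CAGCTG) and 17.5% (CAGATG) of member peaks, against 13.0% and 16.9% of all peaks. In the highest peak of each hotspot CAGCTG was in 17.4% of members and 15.8% of narrower distal hotspots. The homeodomain core TAATTA was in 4.47% of member peaks, 4.47% of all peaks and 5.09% of narrower distal ones; the longer PHOX2 motif was in 0.278%, against 0.217% of all. STAT (TTCNNNGAA) was in 4.27%, against 4.22% of all; SOX (ACAAAGG) in 3.60%, against 3.07%; the GATA motif AGATAAG in 2.16%, against 2.33%; and the nuclear receptor element AAGGTCA in 2.22%, against 2.25%. FOX (TGTTTAC) was in 2.00%, against 1.90%, TEAD (GGAATGT) in 1.77%, against 1.90%, and EBF in 1.85%, against 1.61%.
RUNX (TGTGGTTT) was in 1.04%, against 1.14%, and OCT (ATGCAAAT) in 0.912%, against 0.769%. The rarest were RFX in 0.278%, against 0.233%, NFI in 0.106%, against 0.161%, ONECUT (ATCGATTT) in 0.119%, against 0.0834%, and MEF2 in 0.0926%, against 0.0705%, each under 25 member peaks.

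Inside a member, some motifs were concentrated in the peaks and others were not. The members hold 1141 kb inside replicate 1 peaks and 3325 kb outside. CTCF matches had a density of 1.21 per 10 kb inside peaks and 0.147 outside, a ratio of 8.21. RFX had a ratio of 4.71 (21 matches inside and 13 outside), MAF bZIP 4.20, CRE 3.45 and AP-1 2.99 (735 inside and 716 outside). The ratio was 1.68 for SP/KLF and 1.46 for the E-box CAGCTG, and close to 1 for GATA (1.01), SOX (1.02) and the homeodomain core (1.07). For AP-1, 631 members (21.5%) had at least 1 peak with a match, and 64 (2.18%) had 2 such peaks or more. The same shares were 33.6% and 5.89% for the E-box CAGCTG and 16.6% and 1.84% for SP/KLF. Over the whole interval, peaks or not, 9.98% of members had 2 AP-1 matches or more. Whether matches were repeated less often than by random placement was not tested.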

How the data were processed

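The hotspot and peak lists were used as deposited by the authors on assembly mm10, 1 list of each kind per library. Per the file headers and notes, each list was made from the alignments of its own library; neither aligner nor caller nor threshold is named there (not given in the sources used here). Hotspot lists carry a q-value as −log10, made by the authors, with a lowest value of 1.30 and a cap of 100, used for 1 alternative. The peak lists carry a score made by the authors, used only as a rank within its own list. Read depth is unknown, so no interval that needs it was computed. The labels name 2 sequencing instruments for replicate 2 and none for replicate 1.

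Repeated peak rows were removed (43 in replicate 1 and 20 in replicate 2). Regions were set against protein-coding and other TSSs of GENCODE M21 and the GRCm38 sequence of strain C57BL/6J with Python 3.11.15, numpy 2.4.6 and pandas 2.3.3; figures used matplotlib 3.10.9. No sequence of chromosome 18 is printed. Interval and motif functions were tested on simulated data. Clusters joined members at most 12.5 kb apart. The members, the 31 gene lists, the 24 motifs and the rules were chosen with earlier results of these data known. Genes named were the 15 nearest to most members, those of the 10 widest members and of the 10 clusters with most members, up to 4 per gene list, those of the 3 regions on either side of the width limit, and those of printed peaks; exceptions are stated, and results on a few of these genes are not reported here. Both samples form 1 group, so there was no test. The alternatives changed the width, overlap, TSS distance, TSS annotation, library, q-value, gap, peak and window settings 1 at a time.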

Additional observations from a re-analysis of the deposited data

Results flagged for a closer look

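Outside chromosomes 1 to 19 and X, which the descriptions above leave out, 4 hotspots of 1000 bp or more were found in both libraries, a signal in sequences that no comparison here used. They measured 1955, 1597 and 1577 bp in replicate 1 on unplaced or unlocalized sequences and 2559 bp on the Y chromosome; the replicate 2 partners measured 2239, 1518, 1577 and 1679 bp. Replicate 2 also had 4 such hotspots on the mitochondrial genome, where replicate 1 had 0.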

How the results depend on the processing

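The number of broad distal hotspots moved most with the width limit: 6007 at 750 bp and 704 at 1500 bp, against 2935, and 3784 to 5058 from 1 library alone. The median width was then 1130 and 1924 bp, the share with 3 or more peaks 27.2% and 80.5%, the share in clusters 30.1% and 11.6%, and the intronic share 38.8% and 28.7%. With intervals of replicate 2 the median width was 1298 bp and the share with 3 or more peaks 48.0%. From 1 library alone the median width was 1250 to 1286 bp, the share with 3 or more peaks 40.2% to 44.7%, the share in clusters 24.9% to 26.4%, the intronic share 36.1% to 37.2% and the median TSS distance 21036 to 24158 bp. Counting the upper scores alone left 35.9% with 3 or more peaks. Clusters held 18.4% of members at 50% overlap, 17.6% with TSSs of every biotype, 11.5% at a gap of 5000 bp and 27.9% at 25000 bp. The intronic share was 33.8% and 32.9% with coding TSSs over 2.5 and 5 kb away, where the median distance was 26322 and 30144 bp, and 39.1% with TSSs of every biotype. Joining hotspots at most 150 bp apart, chosen after seeing the data, gave 4363 members, a median width of 1448 bp, 61.8% with 3 or more peaks, 22.2% in clusters and 36.8% in introns. In the highest peak of each member, shares were 12.2% for AP-1, 2.76% for CTCF, 10.2% for SP/KLF, 3.17% for ETS and 17.4% for CAGCTG. In members with no TSS of any biotype within 1 kb, also chosen after seeing the data, they were 9.54%, 1.82%, 6.29%, 2.30% and 16.1%. Between the libraries they were 8.94% to 9.22%, 1.78% to 1.81%, 7.17% to 8.27%, 2.42% to 2.66% and 15.5% to 15.9%. The other values moved by less than the spread between libraries. No member lay in the dense blocks of peaks found in 1 library (38 in replicate 1, 2 in replicate 2). No paired analysis was possible because there was 1 group. With 2 libraries and no stated depth, a width near the limit cannot be told from a difference in calling.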
